A study of Xenopus laevis with 14 samples.

Results

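The gene described here is phox2a, which encodes a paired-type homeodomain transcription factor, in RNA-seq libraries of ectoderm explants from Xenopus laevis. It is 1 of the 19921 genes listed in the expression table, and it was chosen by its measured levels in all 10 libraries, which were highest with 1 of the constructs. Its levels and differences are therefore given as a description, without a test. The table lists phox2a as ENSXETG00000010505, a Xenopus tropicalis identifier, on scaffold GL173305.1 from base 38734 to base 44284, a span of 5551 bases; which build these positions refer to was not given in the sources used. No RNA of a laevis gene copy has a line of its own, so reads of both subgenomes, where both exist, share that line. The RefSeq gene list of Xenopus_laevis_v10.1 holds 1 entry named for phox2a, phox2a.S.

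In mice and other vertebrates, Phox2a is known for its part in specifying neurons of the visceral nervous system. It acts in the visceral and branchial motor neurons of the hindbrain, the oculomotor and trochlear nuclei, the sensory neurons of the epibranchial placodes, sympathetic neurons and the noradrenergic neurons of the locus coeruleus. The protein activates the dopamine beta-hydroxylase gene in noradrenergic cells. Prdm12, the factor whose constructs were injected in the study, is a zinc-finger protein of the p1 progenitor domain, the source of inhibitory V1 interneurons of the hindbrain and spinal cord.

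The explants were animal caps, the ectoderm of the blastula and early gastrula, cut from embryos at about stage 10 and cultured in salt medium. Embryos of the noggin, prdm12, VP16 and engR groups had been injected with synthetic mRNA at the 2-cell stage. For the wild-type group no treatment is listed, and its caps are called untreated caps here. The same injection stage is recorded for that group, so whether its embryos were injected is not known. The noggin caps received noggin mRNA, which encodes a secreted BMP inhibitor that makes ectoderm neural, and were treated with retinoic acid (RA), which posteriorizes neural tissue. The prdm12, VP16 and engR caps received the same noggin mRNA and retinoic acid plus mRNA for prdm12, for prdm12_VP16 or for prdm12_engR; the added names are those of the VP16 activation domain and the engrailed repressor domain. Since noggin and retinoic acid were always given together, their parts in any difference from untreated caps cannot be told apart. There were 2 libraries in each of the 5 groups, and the labels do not say whether replicates came from separate clutches, so the p-values reflect nothing but the spread among these libraries, and that spread may be technical. EngR replicate 1 is named engR in its title and VP16 in its treatment entry; it was kept as engR. Its level of pax2, a paired-box gene, was 1824 normalized reads; the other engR library had 1943 and the VP16 pair 12.7 and 19.6.

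Between 11986697 and 15893668 reads lay on genes in each library, and between 14599 and 15053 genes had a read. Levels are normalized reads, which are read counts divided by 1 factor per library, and the counts behind them were recovered from the table. These levels are not per length, so they are compared between libraries and not between genes. In bulk RNA, fewer cells of a type and less RNA per cell cannot be told apart. Intervals given as counting intervals are exact Poisson ones at 95%, for ratios through the binomial share of the reads, and they cover counting error only, since reads are not independent molecules.

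The data held 939 reads of phox2a in all, and 792 of them came from the VP16 caps. Untreated caps had 3.97 and 7.66 normalized reads of phox2a, from 3 and 7 reads. Noggin caps had 37.4 and 47.7, from 46 and 57 reads. Neuralized caps without a construct thus stood clear of untreated ectoderm in both libraries.

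With prdm12, phox2a had 8.31 and 13.2 normalized reads, from 9 and 16 reads. With engR it had 8.34 and 1.03, from 8 reads and 1 read. All 4 of these libraries lay below both noggin libraries. With VP16 it had 444 and 399, from 386 and 406 reads, and these were the highest of all libraries.

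The group means were 5.82 ± 2.61 (SD, n = 2) in untreated caps, 42.5 ± 7.27 in noggin caps, 10.8 ± 3.47 in prdm12 caps, 4.69 ± 5.17 in engR caps and 422 ± 32.4 in VP16 caps. The order from the top was VP16, noggin, prdm12, untreated and engR. The ranges of VP16 and noggin did not overlap each other or those of any other group. The 3 low groups were not set apart in the same way. The engR range reached from below the untreated range to just above it, and its upper library, at 8.34, lay just above the lower prdm12 library, at 8.31. The prdm12 libraries lay above both untreated ones, but counting intervals of these libraries overlapped. EngR was the group with the widest relative spread, and it rested on 9 reads.

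**Figure D1:**
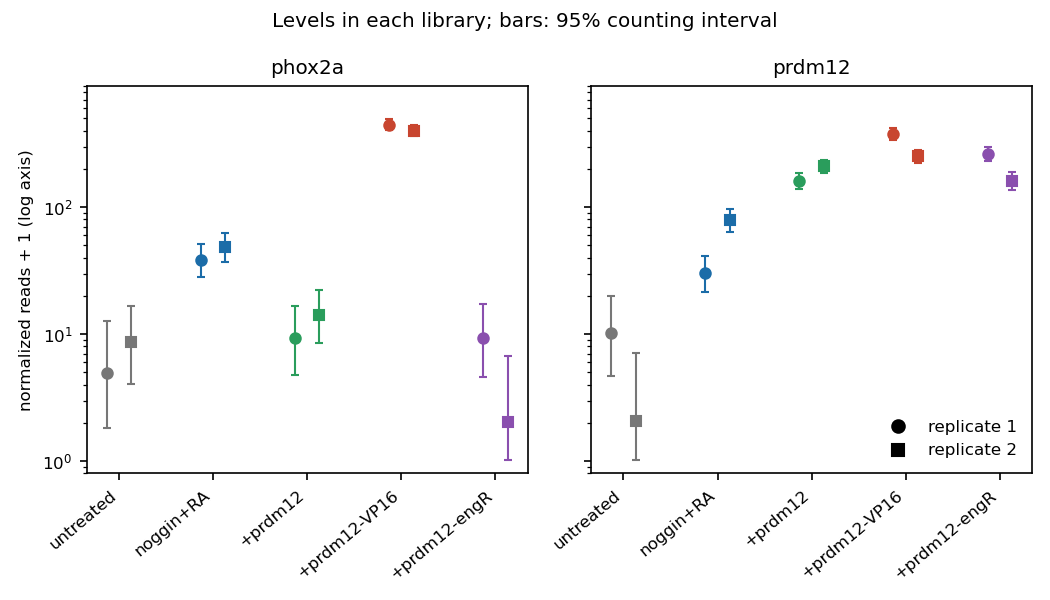
Normalized reads plus 1 (log axis) of phox2a and prdm12 in each of the 10 libraries; circles are replicate 1, squares are replicate 2, and bars are 95% counting intervals. For phox2a the VP16 libraries sit at 444 and 399 and the highest other library at 47.7, while for prdm12 the engR libraries overlap those of both other constructs.

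Ratios of the summed counts, scaled by library, give the size of each step. Noggin caps had 7.09 times the phox2a level of untreated caps, with a 95% counting interval of 3.70 to 15.2, and the ratio was 9.42 within replicate 1 and 6.22 within replicate 2. VP16 caps had 9.88 times the level of noggin caps (8.04 to 12.3), with 11.9 and 8.36 within the replicates. Both steps upward were thus of similar order and appeared in each replicate number.

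With prdm12 the level was 0.257 of that in noggin caps (0.159 to 0.401), and 0.222 and 0.277 within the replicates. With engR it was 0.110 of that in noggin caps (0.0488 to 0.217), but 0.223 within replicate 1 and 0.0216 within replicate 2. The ratio with prdm12 was therefore close in both replicate numbers, whereas the ratio with engR hung on which replicate was taken.

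Between constructs, VP16 caps had 38.5 times the phox2a level of prdm12 caps (25.9 to 59.9), with 53.5 and 30.2 within the replicates. Against engR caps the VP16 ratio was 90.0 (47.2 to 197), with 53.3 and 387 within the replicates. EngR caps had 0.428 of the prdm12 level (0.176 to 0.948), but the ratio was 1.00 within replicate 1 and 0.0779 within replicate 2. The engR and prdm12 libraries overlapped, so no order of these groups can be read from phox2a.

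On the scale of log2(normalized reads + 1), which understates changes of low genes, phox2a differed by 2.72 between noggin and untreated caps and by -1.91 between prdm12 and noggin caps. The difference was 3.29 between VP16 and noggin caps and -3.31 between engR and noggin caps. It was 5.20 between VP16 and prdm12 caps, 6.60 between VP16 and engR caps and -1.40 between engR and prdm12 caps. The spread of the replicates about each difference (root of the summed group variances) was 0.62 for noggin against untreated, 0.50 for prdm12 against noggin and 0.27 for VP16 against noggin. It was 0.45 for VP16 against prdm12 and lay between 1.56 and 1.62 in the 3 comparisons with engR. Only the difference between engR and prdm12 was smaller than its spread. The comparisons share groups, so they are not separate pieces of evidence.

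By absolute log2 difference among 12937 genes averaging 10 or more normalized reads, phox2a ranked 23 in VP16 against engR and 36 in VP16 against prdm12. It ranked 51 in VP16 against noggin, 239 in engR against noggin, 324 in prdm12 against noggin and 657 in engR against prdm12. In noggin against untreated caps it ranked 2958, so many genes differed more there than phox2a did. The libraries other than VP16 also averaged above that minimum on their own, so the gene did not need its VP16 levels to be included. The ranks still rest on the values by which the gene was chosen.

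How far both VP16 libraries stood above everything else was measured by the lower VP16 level plus 1 over the highest of the 8 other levels plus 1. For phox2a that margin was 8.21. Of the 12937 genes, 645 (4.99%) had both VP16 libraries above all others, and 3 (0.0232%) had a margin at least as large as that of phox2a, itself included. The others were grem1, a secreted BMP antagonist, at 28.7, and lcat, an enzyme that esterifies cholesterol in plasma lipoproteins, at 12.3. Just under phox2a came uchl1, a neuronal ubiquitin hydrolase, at 5.66, ANGPTL7, a secreted angiopoietin-like protein, at 5.34, and hsd11b1, which regenerates active glucocorticoid, at 4.06. Then came olig3, a basic helix-loop-helix factor of dorsal neural progenitors, at 3.996 and faah.3, named for fatty acid amide hydrolase, at 3.59. The minimum mean counted the VP16 levels too. With no other library above 9.91, olig3 passed it only through them.

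**Figure D2:**
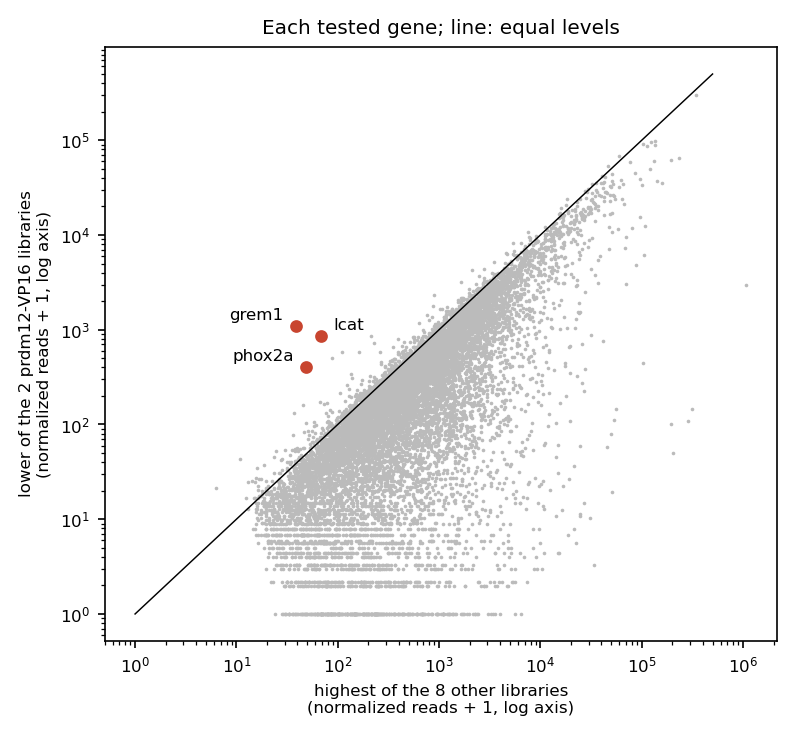
Each of the 12937 tested genes as a point, with the highest of the 8 other libraries on the x axis and the lower of the VP16 libraries on the y axis (normalized reads plus 1, log axes; the line marks equal levels). The red points are grem1, lcat and phox2a, whose margins of 28.7, 12.3 and 8.21 were the 3 largest.

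The level of the injected factor's own line is given beside these values. The prdm12 line had 9.26 and 1.09 normalized reads in untreated caps, 29.3 and 77.8 in noggin caps, and 160 and 209 in prdm12 caps. It had 379 and 250 in VP16 caps and 262 and 160 in engR caps. The engR libraries overlapped both the prdm12 and the VP16 libraries in this line, whereas in phox2a the VP16 libraries overlapped no others. EngR replicate 1 and VP16 replicate 2 had nearly the same prdm12 level, 262 and 250, and phox2a levels of 8.34 and 399. That pair differs in replicate number. Within each replicate number the prdm12 line was higher in VP16 caps than in prdm12 or engR caps. From which species the injected coding sequence came is not stated in the labels, so how much injected RNA this line counted is not known, and its part in the phox2a levels was not tested.

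Other genes of visceral motor neurons were taken from a list of 20 symbols that leaves phox2a out. For these and all further genes the test was limma over all 12937 genes, with Benjamini-Hochberg adjustment in each comparison and a threshold of 0.05. The table held 19 of the 20, nkx2-9 having no line of that name, and 16 passed the minimum mean. Those that did not included tbx20, a T-box factor of visceral motor neurons in mice, and nkx2-8. Levels of tbx20 were between 0 and 2.19 in every library, and it was listed at 0 in both VP16 libraries, so this defining marker was near 0 where phox2a was highest. The list's remaining genes are also used by other cells, among them somatic motor neurons, ventral progenitors and, for gata2 and gata3, epidermis.

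On neuralization, that is between noggin and untreated caps, 11 of the 16 visceral motor genes rose and 3 fell, against 22.3% of all tested genes higher and 21.4% lower. The median log2 difference was 4.89 in the list and 0.02 over all genes. Peripherin, prph, an intermediate filament of peripheral and visceral neurons, rose from 1469 and 1071 normalized reads in untreated caps to 38301 and 35124 in noggin caps (log2 difference 4.87 ± 0.22 SE, adjusted p = 4.13e-06, limma). The ventral progenitor factor nkx6-1 rose from 1.32 and 1.09 to 426 and 291 (7.33 ± 0.48, adjusted p = 1.63e-05). Its relative nkx6-2 and the hindbrain gene hoxb2 rose as well, by 6.40 ± 0.50 and 7.12 ± 0.60 on the log2 scale (adjusted p = 3.62e-05 and 5.06e-05). The members that fell were isl1, gata2 and gata3, which were named after their values were seen. The isl1 call was lost without noggin replicate 1 (adjusted p = 0.0986, limma) or untreated replicate 1 (adjusted p = 0.122). The phox2a difference between these groups, 2.72, was smaller than the list's median.

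With prdm12, 1 of the 16 genes passed the test and it was lower, against 0.147% of all genes higher and 0.0155% lower. That gene was nkx6-1, which fell to 14.8 and 23.1 normalized reads (log2 difference -4.18 ± 0.48 SE, adjusted p = 0.0197, limma). Both prdm12 libraries lay below both noggin libraries in nkx6-1, as they did in phox2a. The call was lost when any 1 of 8 libraries was left out, with adjusted p between 0.0552 and 0.228, the exceptions being the VP16 libraries.

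Between VP16 and noggin caps, no visceral motor gene was called, and none of all tested genes was, so the background was 0 in each direction. At an unadjusted p under 0.05 there were 3 genes of the list and 868 of all genes. By edgeR on the recovered reads the count over all genes was 0 as well, by DESeq2 it was 127, and with the replicate number as a block in limma it was 44. Leaving out VP16 replicate 2 raised it to 197, with 1 lower gene of the list. In that comparison 2 of the 16 list members had a positive log2 difference, and the median was -0.52. The phox2a difference of 3.29 thus had no counterpart of like size in the median of these genes.

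Between VP16 and prdm12 caps, 1 visceral motor gene was higher and 2 were lower, against 0.758% and 3.11% of all genes; with the replicate number as a block the higher ones were 2. The higher one was nkx6-1 at 249.8 and 481 normalized reads in VP16 caps (log2 difference 4.16 ± 0.48 SE, adjusted p = 0.00511), which became 0.0518 without prdm12 replicate 1. The lower ones were isl1, a LIM homeodomain factor of motor and sensory neurons, and gata3, a zinc-finger factor used by serotonergic, sympathetic and epidermal cells. The median log2 difference was -0.01 both in the list and over all genes. Noggin caps averaged 66.35 ± 37.5 (SD, n = 2) normalized reads in isl1 and 74.4 ± 27.1 in gata3. In each gene this mean lay above both VP16 libraries and below both prdm12 libraries. Neither gene was called between VP16 and noggin caps in the main fit, so these lower calls do not show a fall from noggin levels. In isl1 the prdm12 libraries had 492 and 458 and the VP16 libraries 5.76 and 47.1 (-4.72 ± 0.89, adjusted p = 0.0299). That call was lost without any 1 of 7 libraries, at adjusted p between 0.053 and 0.140, the exceptions being the noggin libraries and VP16 replicate 2. In gata3 the levels were 479 and 276 against 32.2 and 17.7 (-3.87 ± 0.48, adjusted p = 0.00687), with 0.0577 without prdm12 replicate 1.

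Between VP16 and engR caps, 2 visceral motor genes were higher and 3 lower, against 3.42% and 8.70% of all genes, with a median log2 difference of -0.18 in the list and -0.02 over all genes. The higher ones were nkx6-1 (log2 difference 2.05 ± 0.48 SE, adjusted p = 0.0299) and tbx2, a T-box repressor (1.43 ± 0.37, adjusted p = 0.0422); tbx2 is named after its value was seen. The lower ones were gata3 (-5.73 ± 0.48, adjusted p = 0.000849), isl1 (-4.66 ± 0.89, adjusted p = 0.0145) and ache, the acetylcholinesterase gene (-4.45 ± 1.04, adjusted p = 0.0303). Mean levels in engR caps were 1349 for gata3, 489 for isl1 and 2375 for ache, against 74.4, 66.35 and 961 in noggin caps. The gata3 call passed without each library in turn, while the other 4 were lost without either engR library, and some of them without further ones. Between engR and noggin caps gata3 was higher (4.19 ± 0.48, adjusted p = 0.0075) and none was lower, against 2.41% and 1.02% of all genes; 2 were lower with the replicate number as a block and by DESeq2, and 1 by edgeR.

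Between engR and prdm12 caps, no gene of the list and none of all genes was called by limma, so the background was 0 in both directions. At an unadjusted p under 0.05 there were 3 of the list and 679 of all genes, and the count over all genes was 0 by edgeR, 178 by DESeq2 and 13 with the replicate block. In the list DESeq2 called 2 higher.

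Of the cholinergic genes of motor neurons, which rose on neuralization, the vesicular acetylcholine transporter SLC18A3 had 104 and 768 normalized reads in VP16 caps. Its noggin libraries had 491 and 825, so the groups overlapped. The synthesizing enzyme chat had 4.61 and 43.2 in VP16 caps and 35.0 and 44.3 in noggin caps. In both genes VP16 replicate 1 was the lower, while phox2a was at 444 in that same library and at 399 in the other. Another cholinergic gene of the list, slc5a7, averaged 103 ± 114 (SD, n = 2) in VP16 caps and 336 ± 139 in noggin caps. In prdm12 caps the means were 85.1 for SLC18A3, 0.875 for chat and 118 for slc5a7. Those in noggin caps were 658, 39.65 and 336, and none of the 3 differences was called. The mean of ache went the other way, at 2160 with prdm12 and 961 in noggin caps. SLC18A3, chat and slc5a7 are named after their values were seen.

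**Figure D3:**
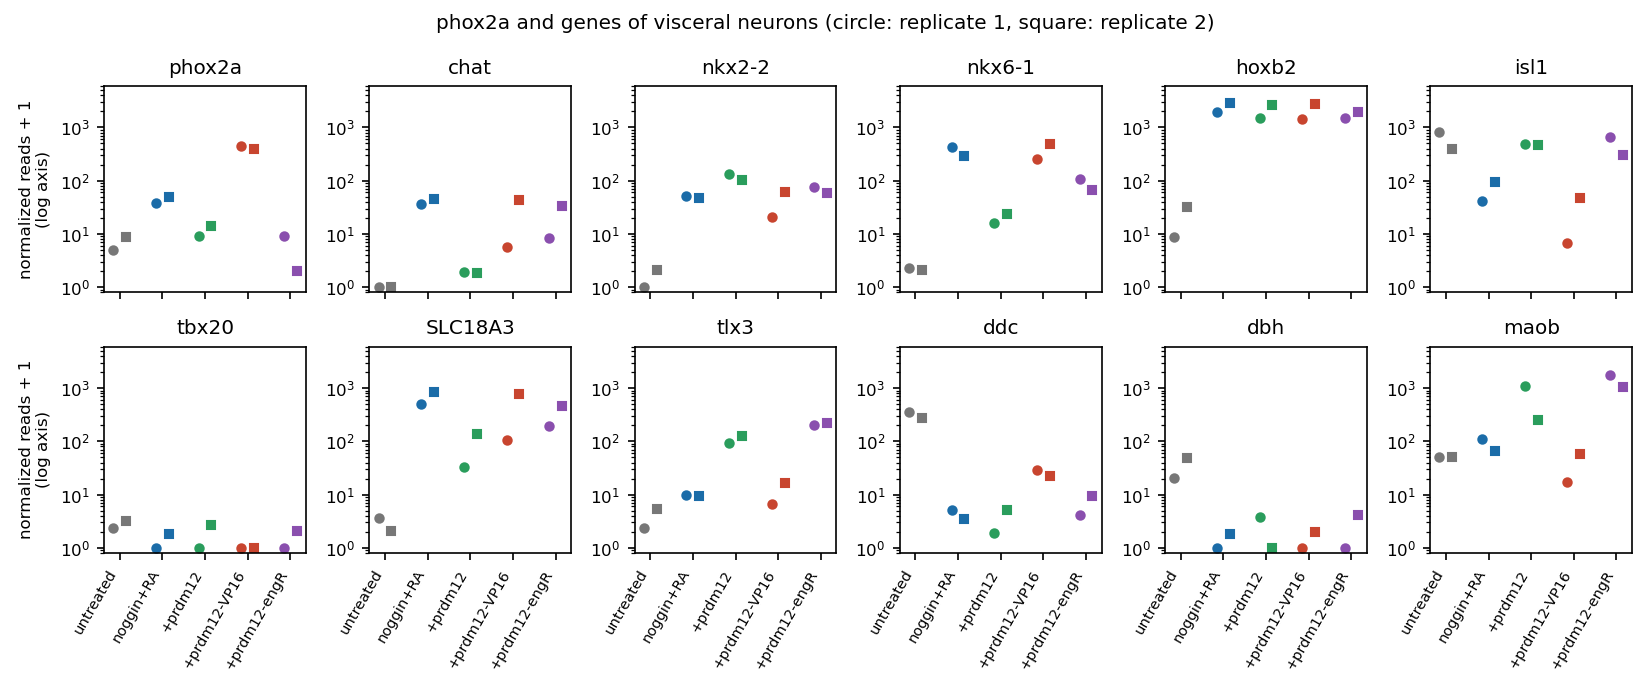
Normalized reads plus 1 (log axis) in each library for phox2a and 11 genes of visceral motor and noradrenergic neurons; circles are replicate 1 and squares replicate 2. In the phox2a panel both VP16 points lie far above every other library, while nkx6-1 is low with prdm12. Levels of tbx20 are near 0 in every library, and those of dbh in every neuralized library, VP16 included.

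The noradrenergic list held 22 symbols of the transcription factors, synthesizing enzymes and transporters of noradrenergic and sympathoadrenal cells. Its members had 20 lines in the table, 2 of them named slc18a1, and 15 passed the minimum mean; lmx1b and slc18a2 were among the symbols with no line of that name. Those below the minimum included hand1, NPY and the defining enzymes of the pathway, th (tyrosine hydroxylase) and dbh (dopamine beta-hydroxylase). In VP16 caps dbh had 0 and 0.98 normalized reads and th had 1.15 and 3.93. Both were higher in untreated caps, dbh at 19.9 and 48.2 and th at 15.9 and 8.75. The dbh gene, a target of Phox2a in mice, was near 0 in the other neuralized libraries too. It had 0 and 0.84 in noggin, 2.77 and 0 in prdm12 and 0 and 3.09 in engR caps. Its low level was thus not particular to the libraries where phox2a was highest.

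On neuralization, 4 of the 15 noradrenergic genes rose (2 without noggin replicate 1) and 7 fell, with a median log2 difference of 0.26. The zinc-finger factor insm1 rose by 3.99 ± 0.34 SE (adjusted p = 5.26e-05, limma). The genes that fell included ddc, aromatic amino acid decarboxylase (-6.21 ± 0.64, adjusted p = 0.000132), hand2, a basic helix-loop-helix factor (-7.02 ± 0.60, adjusted p = 5.24e-05), and slc18a1, a vesicular monoamine transporter (-9.54 ± 0.58, adjusted p = 1.17e-05 in the line with the smaller p). Over all genes 22.3% rose and 21.4% fell, so the share of members that rose was near that of all genes. Most of the called members were higher in untreated ectoderm, where phox2a had 3.97 and 7.66 normalized reads.

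No noradrenergic gene was called in prdm12 against noggin caps or in VP16 against noggin caps by limma or edgeR; 5 and 2 of them had an unadjusted p under 0.05. DESeq2 called 3 and 1, and the replicate block 1 and 0. The median log2 difference between VP16 and noggin caps was -0.17. Between engR and noggin caps 6 were higher with the replicate number as a block. In the main fit 3 were higher and none lower, against 2.41% and 1.02% of all genes. These were tlx3, a homeodomain factor of sensory and noradrenergic neurons (log2 difference 4.47 ± 0.59 SE, adjusted p = 0.0114), maob, a monoamine oxidase (4.01 ± 0.76, adjusted p = 0.0316), and gata3, given above. Each of the 3 calls was lost without either engR library.

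Between VP16 and prdm12 caps, 1 noradrenergic gene was higher and 3 were lower, with 7 lower under the replicate block and a median log2 difference of -1.19. The higher gene was ddc, at 27.6 and 21.6 normalized reads with VP16 and 0.92 and 4.13 with prdm12 (log2 difference 3.02 ± 0.64 SE, adjusted p = 0.0434). In VP16 caps ddc lay above all other neuralized libraries but below both untreated ones, at 353 and 274, and its call was lost without any 1 of the 10 libraries (adjusted p between 0.0666 and 0.1997). The lower genes were gata3, tlx3 and maob. In tlx3 the levels were 92.4 and 123 with prdm12 and 5.76 and 15.7 with VP16 (-3.34 ± 0.59, adjusted p = 0.0264), and in maob they were 1071 and 253 against 16.1 and 56.0 (-4.06 ± 0.76, adjusted p = 0.0298). Leaving out prdm12 replicate 1 ended these calls too, at adjusted p = 0.102 for tlx3 and 0.124 for maob, and so did leaving out VP16 replicate 1, either engR library or, for single genes, others.

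Between VP16 and engR caps, 5 noradrenergic genes were lower, namely gata3, tlx3, maob, chgb (chromogranin B, of secretory granules) and slc6a2 (the noradrenaline transporter); slc6a2 was named after its value was seen. The median log2 difference of the list was -0.79. The calls of gata3, tlx3 and maob passed without each library in turn. Those of chgb and slc6a2 were lost without either engR library or VP16 replicate 1. The slc6a2 call was also lost without VP16 replicate 2 and without any prdm12 or untreated library. None of the list was higher by limma or edgeR, and 1 was by DESeq2 and with the replicate block. Of the 15, 8 had an unadjusted p under 0.05, against 3497 of the 12937 genes. Over all genes, too, more were lower than higher in these comparisons, 3.11% against 0.758% with prdm12 as the reference and 8.70% against 3.42% with engR. In tlx3 the noggin libraries, at 8.94 and 8.37 normalized reads, lay between the VP16 ones, at 5.76 and 15.7. The lower calls of tlx3 thus went with higher levels in prdm12 and engR caps. In maob the noggin mean of 87.1 lay above both VP16 libraries but below both prdm12 libraries.

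Lists of other cell types that these explants could hold were read in the same way. Over all genes, 3.11% were lower in VP16 than in prdm12 caps and 8.70% lower than in engR caps. All 18 pan-neuronal genes rose on neuralization, against 22.3% of all genes. None was called between VP16 and noggin caps by limma or edgeR, and the median log2 difference was -1.42. In that comparison 9 had an unadjusted p under 0.05, against 868 of the 12937 genes. DESeq2 called 2 lower and 1 higher, against 127 of all genes in both directions. Leaving out VP16 replicate 2 gave 9 lower calls there. Between VP16 and prdm12 caps 6 were lower (11 with the replicate block, 0 by edgeR), and the count fell to between 0 and 3 without any 1 library other than VP16 replicate 2, without which it was 10. Between VP16 and engR caps 9 were lower, and 0 without either engR library. The summed level of the 18 genes was 25442 to 78857 normalized reads in the VP16 libraries and 94527 to 140499 in the noggin libraries. It was 167441 to 211557 in the prdm12 libraries and 188185 to 203686 in the engR libraries. The largest part was tubb2b, which averaged 24744 in VP16, 58989 in noggin, 100064 in prdm12 and 95425 in engR caps. Members did not all follow the sum. In ebf2 and neurod1 the VP16 mean, at 1938 and 316, was the highest of the neuralized groups. In elavl3, myt1 and neurod4 it was not the lowest, and in the rest of the list it was. Summed neuronal markers were thus lowest of the neuralized groups in the libraries where phox2a was highest, and their part in the phox2a levels was not tested.

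Of the 12 genes in the V1 interneuron list, 8 were lower in VP16 than in prdm12 caps and 10 lower than in engR caps. Not all members are particular to V1 cells. The list holds evx1, a gene of V0 interneurons, which averaged 54.7 normalized reads in VP16 and 14.1 in prdm12 caps. It was the 1 member with a positive log2 difference there. The shares over all genes were 3.11% and 8.70%. The median log2 differences of the V1 list were -5.46 and -4.70. The first count was 3 without either prdm12 library, and the second was 5 without engR replicate 2. The summed level of the 12 genes was 956 to 1493 normalized reads in VP16 caps and 2301 to 4579 in noggin caps. It was 19138 to 21344 in prdm12 caps and 18373 to 18468 in engR caps. The homeodomain gene en1, the defining marker, had 1.15 and 1.96 in VP16 caps and 482 and 299 in prdm12 caps. The groups in which phox2a was low were thus those with a high sum of the V1 list, with the exception of untreated caps, where the sum was 122 to 199.

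A further list held genes of the rhombomeres, the hindbrain segments in which visceral motor neurons arise. Of 19, 17 rose on neuralization and none fell, against 22.3% and 21.4% of all genes. None was called between VP16 and noggin caps by limma, edgeR or DESeq2, where 1 had an unadjusted p under 0.05 and the median log2 difference was -0.26. The summed level was 163803 to 194026 normalized reads in VP16 caps and 195286 to 224462 in noggin caps. The largest part of both sums was 1 gene, cyp26a1, which averaged 101814 in VP16 caps and 109490 in noggin caps.

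Of the 9 tested somatic motor genes, none was called between VP16 and noggin caps by limma (2 had an unadjusted p under 0.05). Between VP16 and engR caps 2 were higher and 3 lower, against 3.42% and 8.70% of all genes. The higher ones were olig2, a progenitor factor of motor neurons (log2 difference 2.58 ± 0.68 SE, adjusted p = 0.0439), and pou3f1 (2.40 ± 0.57, adjusted p = 0.0316). The lower ones were isl2, lhx1 and mnx1, factors of postmitotic motor neurons and, for lhx1, of V1 cells; olig2 was named after its value was seen. The 2 higher calls became 0 or 1 without any 1 library and 4 with the replicate block, and the 3 lower ones became 1 without VP16 replicate 1 or either engR library. Of 14 epibranchial placode genes, 3 were lower in VP16 than in prdm12 caps and 6 lower than in engR caps, led by pax2 (-6.42 ± 0.50, adjusted p = 0.00227 against prdm12); the 3 became 5 with the replicate block and 1 without prdm12 replicate 1 or 2, an untreated library or VP16 replicate 1, and the 6 became 3 without engR replicate 2. Members pax2 and pax8 of the placode list also stand in the V1 list. None of the 14 was called between VP16 and noggin caps by limma or edgeR, and none of all genes was. The median log2 difference of the placode list was -0.83 there. The mean of pax2 was 16.15 in VP16 and 59.2 in noggin caps, against 1434 in prdm12 and 1884 in engR caps. Lower calls of pax2 thus went with higher levels in prdm12 and engR caps. Over all genes, 3.11% were lower in VP16 than in prdm12 caps and 8.70% lower than in engR caps. Of 13 neural crest genes, foxd3 alone was lower in VP16 than in prdm12 caps. It also stands in the V1 list, and its call was lost without either prdm12 library.

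Epidermal genes went the other way on neuralization, with 14 of 15 lower in noggin than in untreated caps and 1 higher. Over all genes the shares were 21.4% and 22.3%, and 8.70% were lower in VP16 than in engR caps. The summed level of the epidermal genes was 799151 to 911020 normalized reads in untreated caps, 13419 to 15902 in noggin caps and 20226 to 30718 in VP16 caps. Most of the VP16 sum was 1 line of the keratin gene krt18, ENSXETG00000020455, at 22947 and 10796 normalized reads in VP16 caps and 7558 and 4622 in noggin caps, which was also the member that rose on neuralization and is named after its values were seen. Of the 15 members, 6 had a positive log2 difference between VP16 and noggin caps, and the median was -0.29. None was called between VP16 and noggin caps by limma, where 2 had an unadjusted p under 0.05, and 6 were lower in VP16 than in engR caps (3 without engR replicate 1). The summed level of 7 muscle genes, with myf5 at 0 in all libraries but 1, was 810 to 1011 in VP16 caps and 2175 to 3867 in noggin caps. It was 1110 to 1150 in engR caps and 1491 to 2950 in prdm12 caps. The largest part in noggin caps was actc1, which averaged 2233 there, 359 in VP16 and 386 in engR caps. None of the 6 tested muscle genes was called between VP16 and noggin caps by limma or edgeR, and none of all genes was. The part of these cell types in the phox2a levels was not tested.

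Genes with profiles most like that of phox2a were found by the root mean square difference between log2(value + 1) profiles, each centred on its own mean, among genes with a symbol and a mean of at least 10. They are a description, since they were picked for likeness. Over all 10 libraries the nearest were hsd11b1 at 1.15, prss35, a serine protease, at 1.26, lrit2, a leucine-rich repeat membrane protein, at 1.28, olig3 at 1.30 and kcnn4, a calcium-activated potassium channel, at 1.34. Next came ptprq, a receptor phosphatase, at 1.35, emp3, a membrane protein, at 1.35, rlbp1, a retinaldehyde-binding protein, at 1.36, kcnj10, an inward rectifier potassium channel, at 1.37, and VSTM4 at 1.38. In 9 of these 10 genes both VP16 libraries lay above all others. The minimum mean counted the VP16 levels, and lrit2, olig3 and ptprq averaged under 10 over the other libraries. These genes were listed only through their VP16 levels, so in them a high VP16 level was partly set by the minimum.

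Over the 8 neuralized libraries the nearest were SSPO, which encodes SCO-spondin of the floor plate and subcommissural organ, at 0.997 and elovl2, a fatty acid elongase, at 1.10. Then came hsd11b1 at 1.26, kcnn4 at 1.27, kcnj10 at 1.28, agxt2, a mitochondrial aminotransferase, at 1.31, prss35 at 1.37, lcat at 1.38, mxra8 at 1.38 and rlbp1 at 1.39. The lists over 10 and over 8 libraries shared 5 genes, hsd11b1, kcnj10, kcnn4, prss35 and rlbp1. SSPO and mxra8 averaged under 10 over the libraries other than VP16, so they too passed the minimum only through their VP16 levels.

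The nearest gene over 10 libraries, hsd11b1, had 56.9 and 50.3 normalized reads in untreated caps, 207 and 211 in noggin caps, and 128 and 179 in prdm12 caps. It had 926 and 858 in VP16 caps and 76.1 and 59.8 in engR caps. Its groups thus stood in the order of phox2a at the top, with engR and untreated caps at the bottom. The developmental regulator among them, olig3, was listed at 0 in untreated caps, had 0.81 and 5.86 in noggin caps and reached 42.6 and 70.7 in VP16 caps, above the 9.91 of the highest other library. Membership of these lists moved with the settings. Without engR replicate 2, 5 of the 10 nearest over 10 libraries stayed, and without either VP16 library 5 of the 10 nearest over 8 libraries stayed. No gene of the visceral motor or noradrenergic lists was among the nearest 10 in either case.

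**Figure D4:**
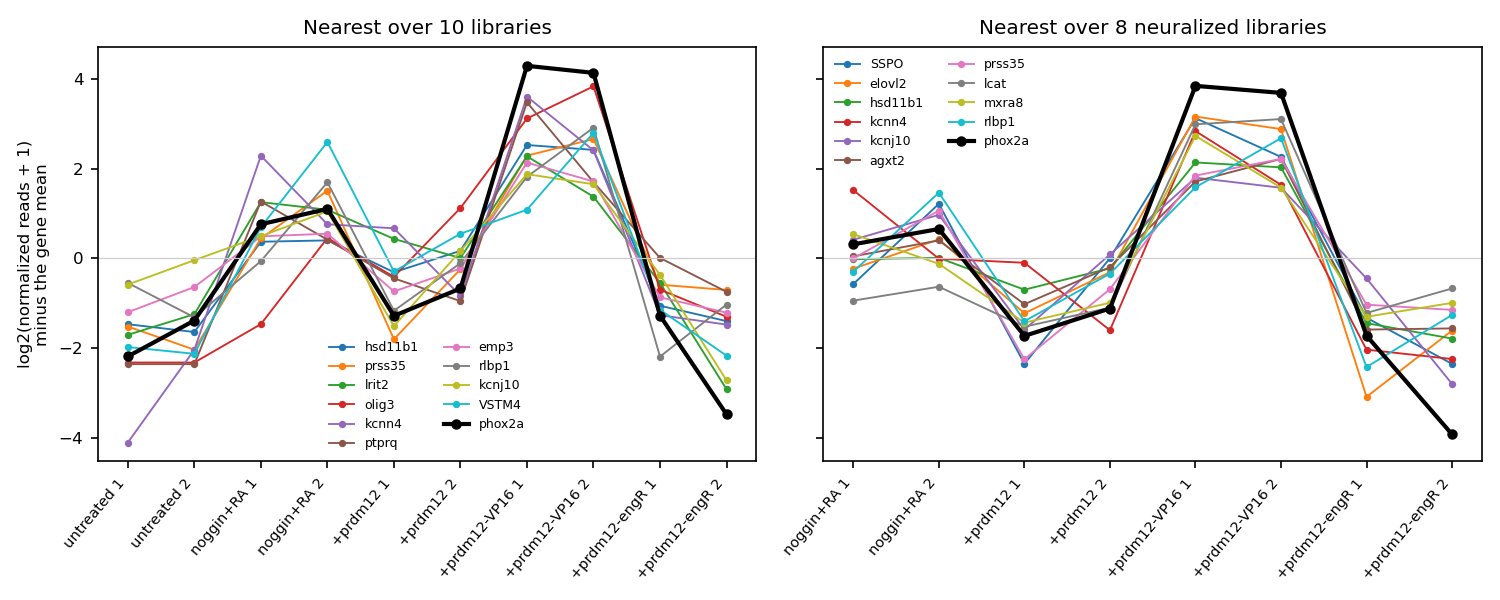
Profiles of phox2a (black) and of the 10 nearest genes, as log2(normalized reads + 1) minus each gene's own mean, over the 10 libraries (left) and over the 8 neuralized libraries (right). The VP16 points are the top of the phox2a profile, and engR replicate 2 is its lowest point in both panels.

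On its scaffold phox2a is the first of 13 listed genes, so neighbours lie on 1 side only. They are clpb, a mitochondrial chaperone gene 17622 bases away, lrtomt, 69568 bases away, and znf674, 74250 bases away. In VP16 caps clpb had 76.0 and 96.2 normalized reads. These lay within the range of the 8 other libraries, 30.2 to 114, but above the 6 other neuralized ones, of which the highest was at 67.7. The zinc-finger gene znf674 had 109 and 168 in VP16 caps and 159 and 189 in noggin caps. Of the 21 tests of these 3 genes in 7 comparisons, 1 passed. It was lrtomt between VP16 and engR caps, at 72.5 and 110 against 37.5 and 19.6 normalized reads (log2 difference 1.68 ± 0.45 SE, adjusted p = 0.0489), and it was lost without any 1 of the 10 libraries. Over all genes 3.42% were higher and 8.70% lower in VP16 than in engR caps. Between noggin and untreated caps the shares were 22.3% and 21.4%. No VP16 level of these 3 genes stood above the others by a margin like that of phox2a.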

How the data were processed

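RNA was poly-A selected and sequenced from 10 libraries and the library kit keeps no strand information, per the labels' protocols. The submitters' processing notes name HOMER, Bowtie, Bowtie2 and edgeR but neither their versions nor their roles; the sources used here do not give the counter or the genome builds. The authors deposited a normalized signal per gene on 19926 lines, of which 5 are counter totals and were left out. Records not aligned uniquely made up 23.8% to 44.0% of the tally. The share differed by group, at 44.0% and 34.3% in untreated and 34.1% and 34.2% in engR libraries. In the noggin, prdm12 and VP16 libraries it lay between 23.8% and 27.9%. Its part in the phox2a levels was not tested. Dividing the signal by the value of 1 read gave whole counts for 100% of values in each library, within 0.05 of a step. Gene spans were deposited as a length by the authors. The ChIP peak lists were not used here, since their build is not given.

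Libraries were grouped by title; the columns of untreated caps carry a code and were matched to them because every other column names its construct. The test was limma 3.58.1 (run in R 4.3.3), with its trend option, on log2(signal + 1), for 12937 genes with a mean of at least 10, with group as the only term in 1 fit over 10 libraries, two-sided. The scripts were tested on simulated data. On the recovered counts, edgeR 4.0.16 called 5523, 23, 0, 433, 358, 0 and 1286 genes in the 7 comparisons, in the order of noggin against untreated, prdm12 against noggin, VP16 against noggin, engR against noggin, VP16 against prdm12, engR against prdm12 and VP16 against engR. DESeq2 1.42.0 was run too. The other alternatives were pseudocounts of 0.25 and 4, median ratio scaling, quantile normalization, the replicate number as a block, no filter, a minimum mean of 50, a fit of only the groups compared and each library left out. The deviations of same-numbered libraries correlated at 0.22 to 0.79 in all 10 pairs of groups, so replicate numbers were taken to pair the libraries. That pairing was used in the ratios within replicates and in the block alternative, and the main test ignored it. The labels do not say what a number marks. Named genes were phox2a, in each comparison the 4 or fewer called members per list whose p was smallest, defining markers at or near 0, the 10 genes nearest in profile and the scaffold neighbours; some genes the rule names are not reported here. The gene and the lists (143 symbols, 9 of them in 2 or more lists) were chosen with earlier results of these data known.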

Additional observations from a re-analysis of the deposited data

How the results depend on the processing

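The log2 differences of phox2a kept their direction in all 7 comparisons under all 20 alternatives, and 139 of these 140 values moved by less than the replicate spread. The exception was noggin against untreated caps, where quantile normalization gave 2.06 in place of 2.72. Leaving out 1 library at a time gave 2.32 to 3.12 for noggin against untreated, -2.22 to -1.60 for prdm12 against noggin, 3.12 to 3.46 for VP16 against noggin and -4.41 to -2.21 for engR against noggin. It gave 4.89 to 5.50 for VP16 against prdm12, 5.50 to 7.70 for VP16 against engR and -2.50 to -0.30 for engR against prdm12. Counts of genes called over all genes moved more. The replicate block gave 121 for prdm12 against noggin (21 without it), 44 for VP16 against noggin (0), 2125 for VP16 against prdm12 (500), 3770 for VP16 against engR (1567), 1414 for engR against noggin (444) and 13 for engR against prdm12 (0). DESeq2 gave 250, 127, 1310, 2413, 1169 and 178 in the same order. Fitting only the 2 groups compared gave 0 for prdm12 against noggin, 0 for VP16 against prdm12 and 640 for VP16 against engR. A pseudocount of 4 gave 45 for prdm12 against noggin, and quantile normalization gave 2 for VP16 against noggin. Without 1 library each, the counts ran from 0 to 33 for prdm12 against noggin, 0 to 197 for VP16 against noggin, 58 to 857 for VP16 against prdm12, 325 to 1662 for VP16 against engR, 4 to 478 for engR against noggin and 4081 to 5687 for noggin against untreated. Where an arm was left with 1 library, it was assumed to vary like the other groups. Of the 2800 list counts under alternatives, 2497 stayed within 1.5 times and 303 moved; the causes were not tested. Depth limits phox2a in the engR caps, at 9 reads.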
